A study of Homo sapiens with 6 samples.

Results

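The cap-binding eIF4 factors, their inhibitors and partners, and the initiation factors that act at the start codon were followed as 18 genes in a genome-wide CRISPR interference (CRISPRi) screen for opioid receptor abundance. Their sgRNAs were found by the gene name in front of the strand and position in the name of each sgRNA. The library lists 220 such sgRNAs among 209070, and the 110 of them with any read in the 6 libraries were all analyzed, among 101314 analyzed targeting sgRNAs against 18905 genes. All 18 genes belonged to the sublibrary H23, which is made up of 6042 genes. The 6 libraries of the study are the top and the bottom fluorescence quartile of each of 3 sublibraries (H17, H23 and H456). There is 1 library each and no replicate. Genes other than the 18 were measured in their own sublibrary. The results below for the 18 genes come, unless another sublibrary is named, from the H23 top quartile and the H23 bottom quartile. Both hold the same HEK293 FLP-In cells, a human embryonic kidney line that takes up a transgene at a fixed genomic site. Every cell carried the delta opioid receptor with the recycling sequence of the mu opioid receptor at its C terminus, fused to the peroxidase APEX2 (SSF-DORmct-APEX2 in the labels), and dCas9-KRAB-BFP, an inactive Cas9 with a repressor domain that silences the promoter an sgRNA leads it to. Whether the screened line was 1 clone or several is not stated, although the methods describe a cloning step. According to the labels, all cells were transduced at a multiplicity of infection of 0.2, selected with 0.75 μg/ml puromycin for 3 days, assayed after 8 days in all and given 10 μM DADLE, an opioid peptide, for 90 min. Amplex UltraRed (AUR, 100 μM), which APEX2 turns into a fluorescent product, was then added, and the cells were sorted on that fluorescence. The sgRNA counts carry no measure of knockdown or of cell identity. The question of the screen was which genes, when silenced, leave less or more receptor in the cell after agonist.

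Most mRNAs are translated after the protein eIF4E binds the cap at their 5′ end. eIF4E joins the scaffold eIF4G and the RNA helicase eIF4A to form eIF4F, which recruits the small ribosomal subunit, while PABPC1 on the poly(A) tail contacts eIF4G and the 4E-BP proteins, when unphosphorylated, keep eIF4E away from it. The subunit then scans to the start codon, where eIF1, eIF1A and eIF5 govern recognition of the codon and eIF5B helps the large subunit join.

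The sgRNAs act at promoters, and the promoters of the 3 genes whose sgRNAs left the range of the controls are therefore shown. The guide sequences themselves are not in the files used here. Each line gives the 250 bases upstream of a RefSeq start on the strand of the gene (GRCh38.p14), at chr4:98929134-98929383 (minus strand) for EIF4E, chr2:232550439-232550688 (plus strand) for EIF4E2 and chr11:10807997-10808246 (minus strand) for EIF4G2. EIF4E2 and EIF4G2 have more than 1 start in the RefSeq table, and the one listed first is shown. Capitals mark the motif CACGTG, the motif GGGCGG and the motif CCGGAAG, searched on both strands.
EIF4E: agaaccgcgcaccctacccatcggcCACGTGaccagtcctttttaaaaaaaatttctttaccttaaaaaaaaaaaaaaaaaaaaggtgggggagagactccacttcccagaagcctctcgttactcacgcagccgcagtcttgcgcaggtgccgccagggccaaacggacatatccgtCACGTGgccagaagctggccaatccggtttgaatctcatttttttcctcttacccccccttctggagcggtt
EIF4E2: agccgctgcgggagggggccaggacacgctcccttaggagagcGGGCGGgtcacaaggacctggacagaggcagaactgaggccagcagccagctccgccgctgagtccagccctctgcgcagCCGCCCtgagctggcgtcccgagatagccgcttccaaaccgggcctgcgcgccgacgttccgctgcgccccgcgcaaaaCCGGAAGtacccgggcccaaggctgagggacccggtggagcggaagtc
EIF4G2: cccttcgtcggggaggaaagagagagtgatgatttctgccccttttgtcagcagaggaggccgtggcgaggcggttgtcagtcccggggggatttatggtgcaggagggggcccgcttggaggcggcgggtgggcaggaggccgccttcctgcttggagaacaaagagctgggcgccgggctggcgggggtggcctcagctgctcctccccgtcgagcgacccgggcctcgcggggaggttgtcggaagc
The EIF4E promoter held CACGTG, the E-box of MYC and related factors, at 2 places, and 6.34% of 35116 RefSeq promoters of the same length held it at least once. EIF4E2 had 2 matches to GGGCGG, a motif of SP factors present in 42.6% of promoters, and 1 to CCGGAAG, a motif of ETS factors present in 8.52%. EIF4G2 had no match to any of the 3. Of the 16 genes with an entry in the table, 5 held CACGTG (EIF4E, EIF4G1, EIF4B, EIF4H and EIF4EBP3), 11 held GGGCGG and EIF4E2 alone held CCGGAAG. The share of G and C in these promoters ran from 37.6% to 76.4%, with 50.4% for EIF4E, 70.8% for EIF4E2 and 68.4% for EIF4G2. The positions in the sgRNA names belong to another build, since none of the 18 genes had an sgRNA within 10 kb of its RefSeq gene, so that the sgRNAs were not placed on these bases.

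The measure of an sgRNA was its phenotype, the log2 ratio between its share of the reads of the top quartile and its share of those of the bottom quartile, set to 0 at the median sgRNA of the nontargeting controls (NTC). A phenotype below 0 means that cells with the sgRNA were more often dim, with less receptor signal, and one above 0 that they were more often bright. The top library of H23 held 47989659 reads and the bottom library 40946430, and totals over the 6 libraries ran from 23426498 to 50486627. The sgRNAs of the 18 genes had 333 to 2908 reads in the top quartile (median 1335) and 203 to 2449 in the bottom quartile (median 1213). Counting alone would give them an SD of 0.0396 to 0.128 on the log2 scale, which covers counting error only, because the reads come from PCR without molecular identifiers. The 570 NTC sgRNAs of H23 had an SD of 0.28, and 95% of them lay between −0.64 and 0.51, called the NTC range below. The phenotype of a gene is the mean over its sgRNAs at 1 start site, given with the SD over sgRNAs. Its p is that of the Mann-Whitney U test, exact and two-sided, of these sgRNAs against the NTC sgRNAs of H23, with Benjamini-Hochberg adjustment over the 18905 genes. This test compares the 2 libraries of a single sort with sgRNAs as units. It has no replicate check.

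Of the 18 genes, 1 passed an adjusted exact p of 0.05, EIF4G2, which was below 0. Over all genes, 0.381% passed below 0 and 0.0952% above 0. At an unadjusted exact p under 0.05 there were 4 (EIF4E, EIF4G2, EIF4A2 and EIF4E2), against 8.12% of all genes. EIF4E and EIF4G2 had a phenotype at or below −0.5, where 0.943% of the H23 genes lay, and none of the 18 reached 0.5, where 0.116% lay (with the mean of the 3 strongest sgRNAs per gene, EIF4E2 did, at 0.51). The median over the 18 genes was −0.07, with −0.01 over the H23 genes. 14 of the 18 were below 0, against 52.4% of the H23 genes, and the phenotypes of 14 lay within 0.2 of 0, as those of 85.1% of the H23 genes did. In 3 genes (EIF4E, EIF4G2 and EIF4E2) all sgRNAs had the same sign at the start site used, which held for 10.0% of the H23 genes. Of the 110 sgRNAs, 4 lay below the NTC range (3.64%) and 1 above it (0.909%), against 2.07% and 2.85% of the targeting sgRNAs of H23. Those 5 sgRNAs belonged to EIF4E, EIF4G2 and EIF4E2. The 90 sgRNAs of the other 15 genes, from −0.55 to 0.48, were inside the range by construction, since the 3 genes were set apart by it. With sgRNAs against olfactory receptor genes in place of the NTC sgRNAs, the range was narrower (−0.44 to 0.34), and 12 of the 110 lay below it (10.9%) and 8 above it (7.27%), against 5.7% and 8.53% of the targeting sgRNAs of H23. Of the 90 sgRNAs, 5 were then below and 6 above.

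EIF4E, the protein that binds the mRNA cap, had the lowest phenotype of the 18 genes. Its sgRNAs had 427 reads in the top quartile and 1031 in the bottom quartile for the strongest, 517 and 779, 1027 and 1385, and 1731 and 2134 for the next 3, and 2452 and 2200 for the weakest. The phenotypes were −1.52, −0.84, −0.68, −0.55 and −0.09 in the same order, so that 3 of the 5 lay below the NTC range and the others inside it. The gene averaged −0.73 ± 0.52 (SD over 5 sgRNAs), or 0.601-fold in the top relative to the bottom quartile, and 0.331% of the H23 genes were lower. The exact p was 0.000263 and the adjusted exact p 0.0519, just short of the threshold. By the positions in the names, the weakest sgRNA was the one farthest upstream, the strongest followed 695 bases downstream, and the other 3 lay 1085 to 1114 bases downstream of the weakest, on the opposite strand. The sgRNAs at −0.55 and −0.68 were 3 bases apart and share most of their target. Without the strongest sgRNA the phenotype of EIF4E was −0.54, with an adjusted exact p of 0.509. In that setting 20 of all genes were called below 0 and 2 above 0, in place of 72 and 18.

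EIF4E2, also called 4EHP, is a relative of EIF4E that binds the cap but not eIF4G and is known to repress the mRNAs it sits on. It had the highest phenotype of the 18 genes, in the direction opposite to EIF4E. Reads in the top quartile exceeded those in the bottom quartile for every sgRNA, at 1735 and 800, 2322 and 1440, 1757 and 1272, 947 and 708, and 778 and 586. The phenotypes were 0.87, 0.44, 0.22, 0.17 and 0.16, of which the highest lay above the NTC range and the others inside it. The mean was 0.37 ± 0.30 (SD over 5 sgRNAs), a ratio of 1.30-fold that 0.712% of the H23 genes exceeded. The exact p was 0.00383, and the adjusted exact p of 0.257 did not pass. EIF4E and EIF4E2 are set side by side as the lowest and the highest of the 18 genes by these same values. The difference between them was not tested. The library also targets TIGD1, a gene derived from a DNA transposon, with sgRNAs as close as 149 bases to those of EIF4E2. TIGD1 had a mean of 0.23 ± 0.14 over 5 sgRNAs (SD; adjusted exact p = 0.472). Which of these transcripts the sgRNAs silenced was not tested. No other gene of the library had an sgRNA within 1 kb of those of the 18 genes.

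EIF4E3, the third cap-binding relative, had sgRNAs on either side of 0. The phenotypes were −0.35, −0.16, 0.02, 0.16 and 0.24, with 511 to 1898 reads in the top quartile and 426 to 1793 in the bottom quartile. The mean of −0.02 ± 0.24 (SD over 5 sgRNAs, adjusted exact p = 0.993) stood near the middle of H23, with 46.7% of the genes lower.

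Among the scaffolds, EIF4G2 fell in the top relative to the bottom quartile. EIF4G2, also named DAP5, resembles the part of eIF4G that holds eIF4A and eIF3 but lacks the site for eIF4E, and serves initiation that does not need eIF4E. The sgRNAs at its start site P1 had 1521 reads in the top and 2192 in the bottom quartile for the lowest, then 487 and 619, 1168 and 1473, 1800 and 1882, and 1768 and 1797. Their phenotypes were −0.77, −0.59, −0.58, −0.31 and −0.27, all negative, of which the lowest lay below the NTC range. The mean was −0.51 ± 0.21 (SD over 5 sgRNAs), 0.704-fold, with an exact p of 8e-05 and an adjusted exact p of 0.0258. Of the H23 genes, 0.91% were lower. These 5 sgRNAs are on 1 strand, and 4 of them begin within 26 bases of each other, where 4 of the 6 pairs overlap, so that they share target bases. Those at the other start site, P2, whose middle sgRNA is 1625 bases from that of P1, had phenotypes of −0.15, −0.13, 0.11, 0.13 and 0.13 and a mean of 0.02 ± 0.14 (SD over 5 sgRNAs, unadjusted exact p = 0.829). P1 was used because its p was the lower of the 2 start sites, a choice made on these same values. The difference between the 2 sets was not tested. The call was lost without the strongest sgRNA (−0.44, adjusted exact p = 0.315) and with the sgRNAs of P1 and P2 pooled (−0.24, adjusted exact p = 0.551). Over all genes, calls below 0 and above 0 went from 72 and 18 to 20 and 2 without the strongest sgRNA. With start sites pooled they went to 60 and 15.

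The scaffolds that do bind eIF4E stayed closer to 0. EIF4G1, the main scaffold of eIF4F, had the smallest SD of the 18 genes at the site used, with sgRNAs at −0.25, −0.23, −0.05, −0.03 and 0.06 and a mean of −0.10 ± 0.14 (SD over 5 sgRNAs, adjusted exact p = 0.852). Its summed reads over the 5 sgRNAs were 8127 in the top quartile and 7409 in the bottom quartile. For EIF4G3, a paralog of EIF4G1, the phenotype was −0.17 ± 0.21 at P1 (5 sgRNAs from −0.38 to 0.10, adjusted exact p = 0.76) and −0.09 ± 0.16 at P2 (5 sgRNAs from −0.27 to 0.08, unadjusted exact p = 0.394).

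The helicase and its cofactors had means below 0, none of them past the adjusted threshold. EIF4A2, 1 of a pair of paralogs that encode the helicase, had 791 reads in the top and 962 in the bottom quartile for its lowest sgRNA at P1, then 1275 and 1437, 1081 and 1192, 1451 and 1402, and 1941 and 1555. The phenotypes of −0.53, −0.42, −0.39, −0.20 and 0.07 gave a mean of −0.29 ± 0.24 (SD). The exact p was 0.0173 and the adjusted exact p 0.456, and 3.77% of the H23 genes were lower. At P2, 1671 bases away by the middle sgRNAs, they were −0.43, −0.08, 0.09, 0.33 and 0.42, with a mean of 0.06 ± 0.34 (SD over 5 sgRNAs, unadjusted exact p = 0.527). Reads of the sgRNAs at P2 ran from 416 to 2808 in the top and from 305 to 2346 in the bottom quartile.

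EIF4A1, the other paralog, split into 2 low sgRNAs at −0.54 and −0.40 and 3 high ones at 0.05, 0.10 and 0.15, with a mean of −0.13 ± 0.32 (SD over 5 sgRNAs, adjusted exact p = 0.917). EIF4B, which stimulates the helicase, split in the same manner, with −0.45 and −0.42 against 0.0036, 0.03 and 0.17, and averaged −0.13 ± 0.28 (adjusted exact p = 0.884). EIF4H, a smaller cofactor related to EIF4B, ranged from −0.44 to 0.25 and averaged −0.03 ± 0.30 (SD over 5 sgRNAs, adjusted exact p = 0.994). For these 3 genes the mean was below 0 while 3 of 5 sgRNAs were above it, and the median over sgRNAs was 0.05 for EIF4A1 and 0.10 for EIF4H.

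The inhibitors of eIF4E and the poly(A)-binding protein lay close to 0. EIF4EBP1, a main target of mTORC1 kinase, had a mean of 0.07 ± 0.24 (5 sgRNAs from −0.15 to 0.47). Its highest sgRNA was the least covered of the 110, with 333 reads in the top and 203 in the bottom quartile, and without it the mean was −0.04. EIF4EBP2 had −0.03 ± 0.24 (5 sgRNAs from −0.36 to 0.31) and EIF4EBP3 had −0.01 ± 0.15 (5 sgRNAs from −0.12 to 0.26). The adjusted exact p was 0.952 for EIF4EBP1, 0.96 for EIF4EBP2 and 0.982 for EIF4EBP3. PABPC1, which binds poly(A) tails, had 1 sgRNA at −0.42, with 883 reads in the top and 995 in the bottom quartile, and 4 between −0.10 and 0.18, with a mean of −0.08 ± 0.22 (SD over 5 sgRNAs, adjusted exact p = 0.921).

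The start-site factors had means on either side of 0. EIF1, which keeps the scanning ribosome open until it meets a start codon, had 4 positive sgRNAs, at 0.26, 0.24, 0.18 and 0.05, and 1 at −0.30, with 1069 reads in the top and 1106 in the bottom quartile. Its mean was 0.09 ± 0.23 (SD over 5 sgRNAs, adjusted exact p = 0.865). EIF1AX, the X-linked copy of eIF1A, had a mean of 0.08 ± 0.27 (5 sgRNAs from −0.18 to 0.48, adjusted exact p = 0.933). The highest, with 1335 reads in the top and 804 in the bottom quartile, was the highest sgRNA outside EIF4E2.

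EIF5, which makes eIF2 hydrolyze its GTP at the start codon, had a wide spread at each of its start sites. At P1 the phenotypes were −0.46, −0.17, −0.17, −0.04 and 0.45, averaging −0.08 ± 0.33 (SD over 5 sgRNAs, adjusted exact p = 0.885). At P2 they ran from −0.40 to 0.34, with a mean of −0.05 ± 0.29 (unadjusted exact p = 0.687). EIF5B, the GTPase of subunit joining, had 1 sgRNA at −0.55, with 688 reads in the top and 850 in the bottom quartile, 3 between −0.07 and −0.03, and 1 at 0.44, with 1008 and 625. Neighbors among the 3 in the middle overlap, and the mean was −0.05 ± 0.35 (SD over 5 sgRNAs, adjusted exact p = 0.949).

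How well the sgRNAs were represented among the sorted cells was read from the sum of their shares in the top and the bottom quartile, relative to the median NTC sgRNA of H23. None of the 18 genes passed an adjusted exact p of 0.05 by the Mann-Whitney test in this measure, or an unadjusted p of 0.05, against 0.296% and 12.8% of all genes. The means ran from −0.48 ± 1.38 for EIF4A2 at P2 and −0.39 ± 1.27 for EIF4EBP1 to 0.36 ± 0.40 for EIF1AX on the log2 scale (SD over 5 sgRNAs each). EIF4E had 0.01 ± 0.80, EIF4G2 at P1 had 0.16 ± 0.74 and EIF4E2 had −0.10 ± 0.60. No library of the starting pool was used, so that loss during growth and uneven synthesis of sgRNAs cannot be told apart here. Across the 110 sgRNAs, Pearson's r between phenotype and this measure was 0.03, with points that share 2 libraries, and 0.01 across the targeting sgRNAs of H23.

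Other parts of the initiation machinery gave the following values. Over all genes, 0.381% passed the adjusted threshold below 0 and 0.0952% above 0. An unadjusted exact p under 0.05 by the Mann-Whitney test was found for 8.12% of all genes, and 52.4% of the H23 genes lay below 0. Of 14 genes for subunits of eIF3, which bridges eIF4G and the small ribosomal subunit, 1 passed the adjusted threshold, EIF3G. Its 5 sgRNAs averaged −0.64 ± 0.15 (SD) with an adjusted exact p of 0.000552. Of the 14, 5 had an unadjusted exact p under 0.05. EIF3C (−0.20 ± 0.34, SD over 8 sgRNAs) and EIF3CL (−0.22 ± 0.45, SD over 5 sgRNAs), named for the same subunit, are counted separately. The list ran up to EIF3J at 0.07 ± 0.53 (SD over 5 sgRNAs) and had a median of −0.15, with 11 genes below 0. Of 8 genes of eIF2 and eIF2B, which bring the initiator tRNA and reload eIF2 with GTP, none passed either threshold by this test, and the median was 0.03, from EIF2B5 at −0.19 ± 0.28 to EIF2S1 at 0.17 ± 0.16 (SD over 5 sgRNAs each). Of 17 partners and relatives of eIF4F and PABPC1, none passed either threshold, with a median of 0.03. They ran from LARP1, at −0.14 ± 0.23 in H456, to EIF4ENIF1, at 0.30 ± 0.38 in H23 (SD over 5 sgRNAs each). LARP1 binds capped mRNAs with a 5′ oligopyrimidine tract, and EIF4ENIF1 carries EIF4E into the nucleus. This list and the next hold genes of H17, H23 and H456. Of 13 relatives of the start-site factors, none passed the adjusted threshold and 1 had an unadjusted exact p under 0.05, with a median of −0.08. They ran from ABCE1, which recycles ribosomes, at −0.44 ± 0.57 to BZW1, an EIF5 mimic, at 0.12 ± 0.47 (SD over 5 sgRNAs each), both measured in H17.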

How the data were processed

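The deposited files hold raw counts of reads per sgRNA, which the authors made from reads cropped to 38 bp with ScreenProcessing (version 0.1), after 27 PCR cycles without molecular identifiers; 1 file was deposited per quartile and sublibrary. Quartiles follow the sample titles; the letter that closes each library name stands for the opposite quartile. Each gene was placed in a sublibrary by its sgRNAs, and an sgRNA was kept with at least 10% of its reads there and at least 50 reads in the top or the bottom library. A count of 0 had 1 added to it and to its partner. The analyzed reads were 98.5% of the top and 98.3% of the bottom library of H23. A gene needed at least 2 sgRNAs at a start site, and of several sites that with the lowest p was used, a choice for which p was not corrected. The genome build of the positions in the sgRNA names was not given in the sources used here. Labels and methods differ on the days of knockdown and the time with agonist. The exact Mann-Whitney test, with Benjamini-Hochberg adjustment, was written in Python (version 3.11.15) and tested on simulated data; edgeR (version 4.0.16) gave TMM factors for 1 alternative. The hit threshold of the study, set with pseudogenes drawn from NTC sgRNAs, was not used here. All 18 genes are named, with the called, lowest and highest gene of each other list; 1 further gene set as a check is not reported here. Members, lists and rules were chosen with earlier results of these data known. The 13 alternatives altered the read minimum, added counts, centring, the summary over sgRNAs, start sites, the comparison set and depth.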

Additional observations from a re-analysis of the deposited data

Results flagged for a closer look

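In the 4 libraries of the sublibraries to which the 18 genes do not belong, 5 of their 110 sgRNAs (4.55%) had more than the 30 reads that 95% of the NTC sgRNAs of H23 did not exceed. The highest NTC sgRNA had 300 reads there. The 3 sgRNAs with at least 100 reads are given. An EIF4G2 sgRNA at P1 had 125 reads in the top and 289 in the bottom quartile of H17, 414 in all, a log2 ratio of −0.90 relative to the NTC sgRNAs there, with a phenotype of −0.58 in H23. An EIF1AX sgRNA had 44 reads in the top and 203 in the bottom quartile of H456, 247 in all, a log2 ratio of −1.44 there and a phenotype of 0.48 in H23. An EIF4EBP2 sgRNA had 63 reads in the top and 66 in the bottom quartile of H456, 129 in all, a log2 ratio of 0.70 there and a phenotype of −0.07 in H23. Counting alone gives these ratios an SD of 0.154 for EIF4G2, 0.24 for EIF1AX and 0.254 for EIF4EBP2. The NTC sgRNAs of H17 spread more widely, with 95% between −1.21 and 0.59, and 4.52% of them were lower than the EIF4G2 ratio. In H456, 95% of the NTC sgRNAs lay between −0.57 and 0.57. There 0.135% were lower than the EIF1AX ratio and 98.5% lower than the EIF4EBP2 ratio. The median counting SD of these NTC sgRNAs was smaller, 0.0803 in H17 and 0.068 in H456. The sgRNAs of the 18 genes had a median of 10 reads in the 4 other libraries, as the NTC sgRNAs of H23 did, and 1.51% of the targeting sgRNAs of H23 had at least 400. How these reads arose was not tested.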

How the results depend on the processing

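No paired analysis was possible because each quartile of each sublibrary has 1 library. In 13 alternatives to the settings used, the call of a gene was the same in 232 of 234 values. The exceptions were EIF4G2 without the strongest sgRNA (−0.44) and with start sites pooled (−0.24), each bringing the genes called from 1 to 0. Centring on all sgRNAs, TMM, the median and the mean of the 3 strongest sgRNAs cannot change p. Their calls were therefore the same by construction. With olfactory receptor sgRNAs as the comparison set, EIF4G2 had an adjusted exact p of 0.0493 by the Mann-Whitney test. EIF4E passed an adjusted exact p of 0.05 in none, with p from 0.0504 to 0.509 and phenotypes from −1.01 to −0.54, and EIF4E2 had p from 0.251 to 1.0. Only EIF4E lay at or beyond 0.5, 1 gene in place of 2, when centred on all sgRNAs or by TMM, without the strongest sgRNA and with start sites pooled. With the mean of the 3 strongest sgRNAs there were 3, EIF4E2 (0.51) added. With olfactory receptor sgRNAs in place of NTC sgRNAs, 20 in place of 5 sgRNAs lay outside the 95% range, which was narrower. Below and above it lay 10.9% and 7.27% of the sgRNAs of the 18 genes, against 5.7% and 8.53% of the targeting sgRNAs of H23. No gene was called by summed reads in any alternative. The sign turned in 15 values of 11 genes near 0, none of them called. With the median over sgRNAs these were EIF4A1 (0.05), EIF4B (0.0036), EIF4E3 (0.02) and EIF4H (0.10). Without the strongest sgRNA they were EIF1AX (−0.02), EIF4E3 (0.06), EIF4EBP1 (−0.04), EIF4EBP2 (0.05), EIF4H (0.07), EIF5 (0.04), EIF5B (0.07) and PABPC1 (0.0059). EIF4EBP3 turned when centred on all sgRNAs (0.00051), by TMM (0.00086) and with the mean of the 3 strongest sgRNAs (0.02). The fewer sgRNAs left without the strongest and the added P2 sgRNAs are part of those settings, and no other cause was tested.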

Other observations

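Some sgRNAs of 1 gene that target nearly the same bases had different phenotypes. The largest such difference among the 18 genes was at P2 of EIF5, where sgRNAs 4 bases apart on 1 strand had 1762 reads in the top and 1171 in the bottom quartile for one and 1116 and 1241 for the other. Their phenotypes were 0.34 and −0.40, a difference of 0.74 with a counting SD of 0.0806. At P1 of EIF4G2, sgRNAs 3 bases apart had −0.77 and −0.31, a difference of 0.46 (counting SD 0.0677). For PABPC1, sgRNAs 8 bases apart had −0.42 and 0.03, a difference of 0.45 (counting SD 0.087). For EIF4EBP2, by contrast, sgRNAs 3 bases apart had −0.07 and −0.05. Over the 19 overlapping pairs of the 18 genes the median difference was 0.181, with 0.292 over the 201 pairs that do not overlap. Over all targeting sgRNAs of H23 it was 0.231 for 7665 overlapping pairs and 0.235 for 58239 pairs that do not overlap, against a median counting SD of 0.0846 and 0.0848. The upper decile of the difference was 0.599 over the overlapping pairs of H23 and 0.451 over those of the 18 genes. Counting SD leaves out other variation between sgRNAs, and single NTC sgRNAs of H23 had an SD of 0.28. The pairs share sgRNAs and libraries, and no test was made on them.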
